A study of Saccharomyces cerevisiae with 13 samples.

Results

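The genes described here encode the proteins of the cytosolic ribosome of budding yeast. They were chosen by symbol: a gene belonged to the set if a probe set naming that gene alone carried a symbol of the form RPL, RPS or RPP with a number and, where there is one, a paralog letter. Of 5102 genes tested on the arrays, 81 met this rule, and all 81 genes with such a probe set passed the filter on dim probe sets. They comprised 33 proteins of the small subunit, 42 of the large subunit and the 5 proteins of the large subunit's stalk. The last of the 81, RPP1, matches the spelling of the stalk genes but encodes a subunit of the RNA-processing enzyme RNase P. It was kept because the rule includes it, and it was left out of the classes, which hold 80 genes. The set held 31 pairs of paralogs named A and B and 18 genes without a paralog letter.

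Each ribosome carries a single copy of nearly every ribosomal protein, and the cell makes the whole set in step with ribosomal RNA. In growing yeast these genes are among the most strongly transcribed. Rap1, Fhl1, Ifh1 and Sfp1 act at their promoters, under the TOR and protein kinase A pathways, and their transcripts fall when cells are starved or stressed. Many are present as a duplicated pair whose products are identical or nearly so, and the members of a pair can be expressed and spliced differently. Polyamines, the small positively charged molecules supplied in this study, bind RNA and ribosomes.

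The data are 13 Affymetrix arrays of Saccharomyces cerevisiae, each hybridised in 1 colour with biotin-labelled total RNA. There were 3 arrays of spermine-treated and 5 of spermidine-treated cells, both labelled with the genotype delta-spe3 delta-fms1, and 5 arrays labelled as control. SPE3 encodes spermidine synthase and FMS1 a polyamine oxidase, and spermine carries an aminopropyl group more than spermidine. The labels of the controls give no genotype, the title names a polyamine-deficient mutant, and the sources used here state neither doses nor times nor whether cultures were separate. The spread behind every p-value is that between arrays and may be technical.

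SPE3 signals lay between 0.570 and 13.8 and FMS1 signals between 1.10 and 8.10 over all 13 arrays, controls included, under the signal of 37.8 below which probe sets were left out as dim. Median signals of the arrays ranged from 125 to 162 units. Signals of the 81 genes were high: for 73 of them the mean signal was among the brightest 10% of probe sets. Their summed signal made up 8.17% to 13.7% of an array's summed signal. A signal is a brightness and says nothing of the relative level of different genes. Fewer cells and less RNA per cell cannot be told apart on such arrays.

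With spermidine, most ribosomal protein genes stayed close to control. In limma, 1 of the 81 genes was higher and 5 were lower than in control at an adjusted p under 0.05, which is 7.41% of the set, against 32.6% of all 5102 genes (17.9% higher and 14.7% lower). The median change was 0.03 on the log2 scale, against 0.02 over all genes, with 44 members above 0 and 37 below (51.7% of all genes were above 0). A change of less than 1.3-fold was seen for 74 members (91.4%), against 54.4% of all genes. Changes of the members ran from -0.55 (RPL3) to 0.78 (RPS22B), and their standard errors had a median of 0.14, against 0.18 over all genes. The groups did not overlap for 2 members, RPL3 and RPP2B, both lower with spermidine (9.39% of all genes were lower without overlap), and for 0 members in the other direction (14.1% of all genes).

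**Figure D1:**
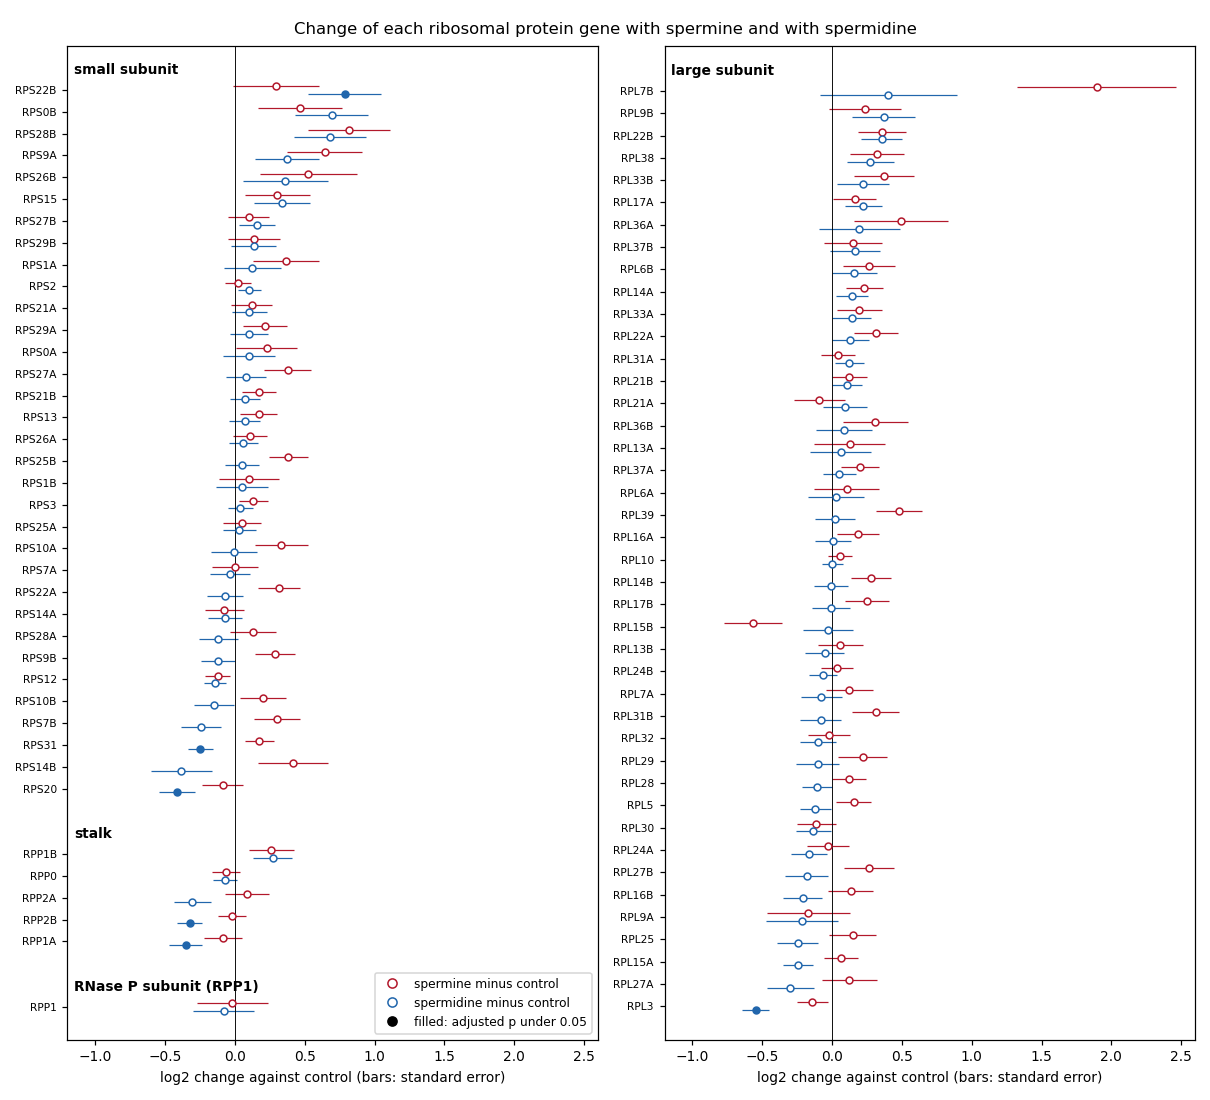
Log2 change against control (x axis) of each ribosomal protein gene (y axis), with spermine in red above spermidine in blue, and bars for the standard error. Filled points have an adjusted p under 0.05 in limma: with spermidine these are RPS22B on the right and RPS31, RPS20, RPP2B, RPP1A and RPL3 on the left, and with spermine there are none. Most spermine points lie to the right of the spermidine point of the same gene.

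Large subunit genes had a median change of 0.00 with spermidine, with 22 of 42 above 0, and RPL3 was the single member called. RPL3 encodes a protein that reaches from the solvent side of the large subunit to the peptidyl transferase centre. Its signals were 4895, 5904 and 5988 on the spermine arrays, 4473, 3858, 4469, 3727 and 3828 on the spermidine arrays, and 5870.4, 6656, 6511, 5973 and 5564 on the control arrays. Every spermidine array lay below every control array, and the spermine arrays lay above all spermidine arrays. Means were 5596 ± 608 on the spermine arrays, 4071 ± 368 on the spermidine arrays and 6115 ± 456 on the control arrays (SD; n = 3, 5 and 5). The change with spermidine was -0.55 ± 0.10 in log2 (limma adjusted p = 0.000597), a ratio of 0.684 to control, and it was called under each of the 28 alternative settings, with values between -0.68 and -0.45. RPL15A, with a change of -0.25 (adjusted p = 0.0898), was not called. RPL7B, RPL9B and RPL22B had the highest values in this subunit, 0.40, 0.37 and 0.36, and did not pass the test.

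The stalk was the class with the lowest median with spermidine, -0.31 over its 5 genes, with 4 below 0 and 1 above. Of the 5, 2 were called lower (40%, against 14.7% of all genes), a coarse share for so few genes. The base of the stalk is the protein of RPP0, which holds pairs of the acidic proteins P1 and P2. These recruit the translation factors that hydrolyse GTP. RPP2B signals were 9218, 13405 and 12289.7 on the spermine arrays, 8699, 10654, 10164, 6739 and 10561 on the spermidine arrays, and 10607, 10411, 12786, 13163 and 11589 on the control arrays. On the deposited scale the lowest 2 controls overlapped the spermidine arrays, and after normalisation the groups were apart. The change of RPP2B was -0.32 ± 0.09 (adjusted p = 0.0117). It was not called with values as deposited, with median centring or against controls 2 and 3 alone (adjusted p of 0.0900 to 0.159 in these settings). RPP1A signals were 6618, 7727 and 7545 on the spermine arrays, 7568, 5911, 5068, 5086 and 6425 on the spermidine arrays, and 9415, 7472, 7029, 8049.9 and 6703 on the control arrays, with spermidine 1 inside the control range. Its change was -0.35 ± 0.12 (adjusted p = 0.035), and the call depended on single arrays. It was lost when control 1, 2 or 4 or spermidine 2, 3, 4 or 5 was left out, with changes of -0.37 to -0.28 and adjusted p of 0.0503 to 0.0863, and in 7 other settings.

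The other stalk genes were not called. RPP2A had a change of -0.31 ± 0.13 (adjusted p = 0.0957) and RPP0 one of -0.07 ± 0.09 (adjusted p = 0.565). RPP1B stood on the other side of 0, at 0.27 ± 0.14 (adjusted p = 0.153). Its signals were 8279, 13108 and 11484 on the spermine arrays, 10690.2, 15691, 11260.1, 6581 and 11010.1 on the spermidine arrays, and 9695, 7004, 8224, 10765 and 8982 on the control arrays. On the deposited scale spermidine 4 was the lowest of all 13 arrays and spermidine 2 the highest, while after normalisation control 2 was the lowest. Without spermidine 4 the change was 0.38 and called (adjusted p = 0.0297). A second RPP1B probe set gave 0.36. With spermine, the stalk genes ranged from -0.09 (RPP1A) to 0.26 (RPP1B) and none was called.

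Small subunit genes had a median change of 0.06 with spermidine, and 21 of 33 were above 0. RPS20 and RPS31 were called lower and RPS22B higher. RPS20 encodes a protein of the head of the small subunit. Its signals were 5487, 5414 and 5307 on the spermine arrays, 4243, 5210.1, 5074, 2848 and 4309 on the spermidine arrays, and 5685, 5705, 5082, 6196 and 6072 on the control arrays. On the deposited scale spermidine 2 fell inside the control range, and after normalisation spermidine 3 did instead. Spermidine 4 was far below the other arrays. The change was -0.42 ± 0.13 (adjusted p = 0.0223). It was not called with median centring or against controls 2 and 3 alone (adjusted p of 0.0820 and 0.201).

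RPS31 encodes a small subunit protein that is made as a fusion to ubiquitin. Signals of RPS31 were 8459, 10398 and 8929 on the spermine arrays, 7813, 7789.6, 6507, 5934 and 5859 on the spermidine arrays, and 8908, 7759, 7421, 8638 and 7634 on the control arrays. On the deposited scale spermidine 1 and 2 overlapped the lower controls, and after normalisation spermidine 1 alone did. The change was -0.25 ± 0.09 (adjusted p = 0.0492), next to the threshold, and 22 of 28 alternatives did not call it, among them leaving out any array except spermidine 1 (changes of -0.27 to -0.19, adjusted p of 0.0534 to 0.123). The other ubiquitin fusion genes, RPL40A and RPL40B, were seen only through probe sets that name both, which gave -0.39, -0.18 and -0.06 with spermidine, and none of these was called.

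RPS22B, whose transcript carries an intron that hosts a small nucleolar RNA, was the single member called higher with spermidine. Its signals were 1941, 4183 and 3479 on the spermine arrays, 4868, 6748, 4397, 2521 and 3839 on the spermidine arrays, and 3578, 2346, 1560.4, 2728 and 2585 on the control arrays. All but spermidine 4 lay above every control on the deposited scale. The change was 0.78 ± 0.26 (adjusted p = 0.0343), a ratio of 1.72. Its 3 probe sets gave 0.69, 0.78 and 1.20. The call was lost with median centring, with the replicate number as a block, without controls 2 and 3 and spermine 1, and when control 2, control 3 or spermidine 1, 2, 3 or 5 was left out, with changes of 0.62 to 0.81 and adjusted p of 0.0523 to 0.0853 for the single arrays. RPS0B (0.69 ± 0.26) and RPS28B (0.68 ± 0.26) had values nearly as high and an adjusted p of 0.055 each.

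**Figure D2:**
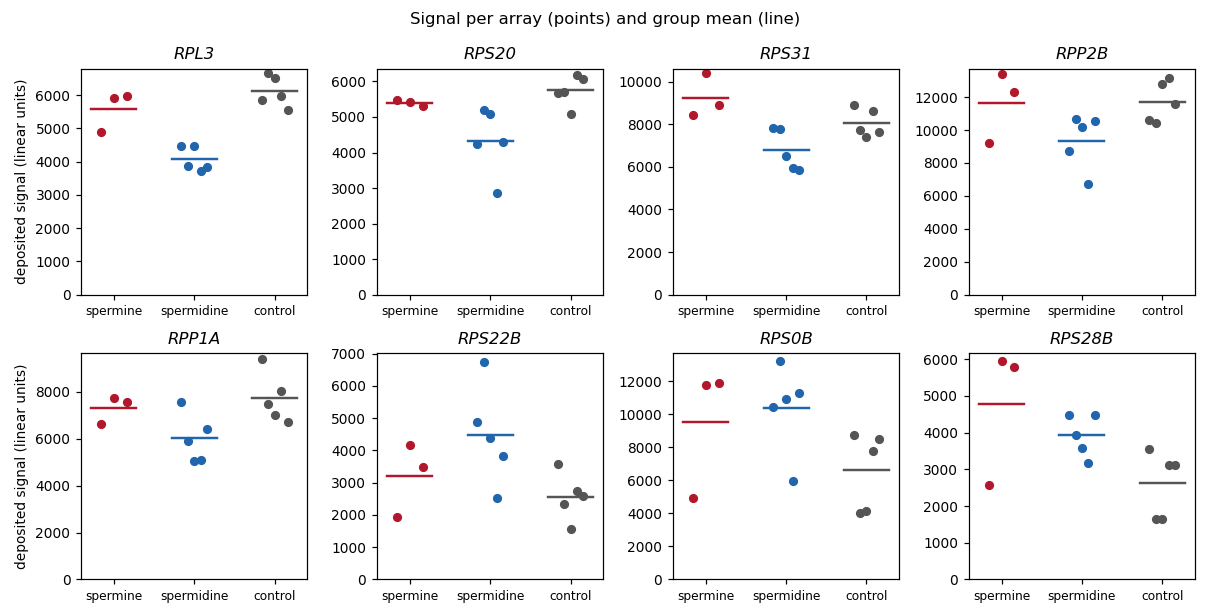
Deposited signal in linear units (y axis) of 8 ribosomal protein genes on each array, with spermine, spermidine and control from left to right, points for arrays and a line for the group mean. RPL3 signals of the spermidine group (3727 to 4473) lie below all control signals (5564 to 6656), while RPS22B, RPS0B and RPS28B have most spermidine points above the controls and spermidine 4 as the lowest spermidine point.

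The set moved as a whole between arrays of the same group, and by more than its median change of 0.03 with spermidine. Relative to the control mean, the median of the 81 genes was 0.02, 0.26 and 0.21 on spermine 1 to 3, 0.10, 0.20, 0.14, -0.35 and 0.07 on spermidine 1 to 5, and 0.12, -0.17, -0.21, 0.14 and 0.14 on controls 1 to 5. Spermidine 4 stood apart, with 78 of 81 members below their own group mean (48.0% of all genes). Controls 2 and 3 lay below the other controls, with 64 and 72 members below the group mean (56.5% and 51.1% of all genes). The standard deviation of the 5 spermidine medians was 0.22, against 0.18 for the controls.

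A list of 15 stress genes, among them CTT1 (catalase), HSP12, HSP26 and TPS1 (trehalose synthesis), is given beside these values. Their mean was 0.50, -1.16 and -0.68 on spermine 1 to 3, between -1.93 and -1.18 on the spermidine arrays, and -0.82, 1.13, 1.03, -0.49 and -0.85 on controls 1 to 5, relative to the control mean. Spermine 1 and controls 2 and 3 were high in stress genes and low in ribosomal protein genes within their groups, and spermidine 4, the lowest in ribosomal protein genes, was the highest in stress genes within a narrow range. With spermidine, 7 of the 15 stress genes were called lower (46.7%, against 14.7% of all genes), with a median change of -1.40. The list was chosen with earlier results of these data known, so this share is a description only. The part of the stress genes in the ribosomal protein values was not tested.

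The direction of the set's median with spermidine depended on which arrays were included. Controls 2 and 3 and spermidine 4 had the lowest medians of these same genes within their groups. The direction in which the median shifts without them, or against controls 2 and 3 alone, was thus fixed in advance. The values below show the size of the shift and are no test. Without controls 2 and 3 and spermine 1 the median was -0.11, with 21 of 81 members above 0, 0 called higher and 5 lower (6.17% of members, against 30.6% of all genes in that setting). Against controls 2 and 3 alone it was 0.19, with 8 called higher and 1 lower (11.1%, against 31.6% of all genes). Leaving out spermidine 4 gave a median of 0.14, with 6 called higher and 3 lower (11.1%, against 29.6% of all genes). With 1 array left out, between 28.6% and 32.6% of all genes were called. Leaving out other single arrays changed the count of genes called higher to 0 (control 2 or 3, spermidine 1, 2, 3 or 5), 2 (control 4), 3 (control 1 or spermine 1) or 4 (control 5). The count called lower was 3 without control 1, 2 or 4 or spermidine 3, 4 or 5, and 4 or 5 without any other array.

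**Figure D3:**
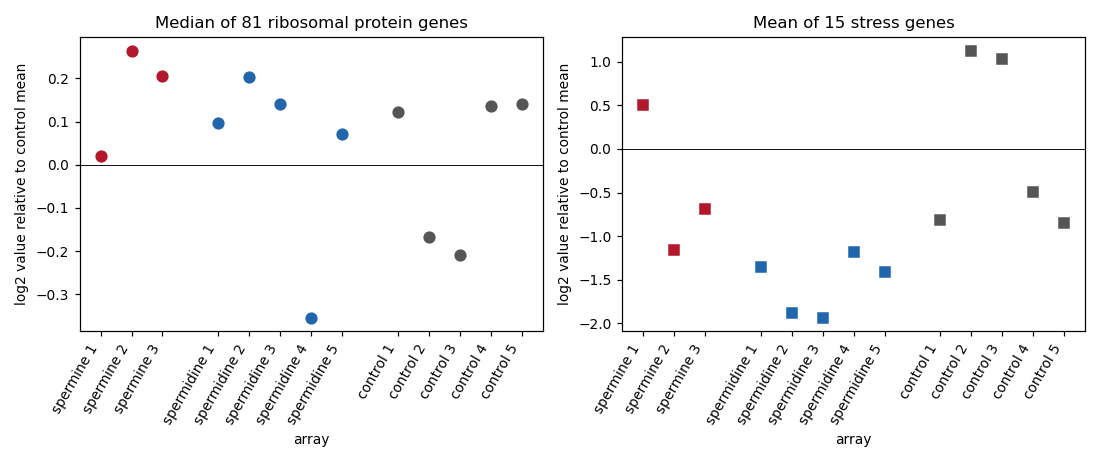
Median log2 value of the 81 genes (left) and mean of 15 stress genes (right) on each of the 13 arrays relative to the control mean, with spermine, spermidine and control arrays from left to right on the x axis. Spermidine 4 (-0.35) is the lowest array on the left, and controls 2 and 3 are low on the left (-0.17 and -0.21) and high on the right (1.13 and 1.03).

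With spermine, none of the 81 genes was called in limma, while 6 were higher and 1 lower at an unadjusted p under 0.05 (8.64% of members, against 8.49% of all genes, 5.25% higher and 3.23% lower). Over all genes, 1 of 5102 was called higher (0.0196%) and 0% were called lower. Most members nevertheless lay slightly above control: 67 of 81 (82.7%) were above 0, against 53.8% of all genes, with a median of 0.16, against 0.02. Small subunit genes had a median of 0.20 with 30 of 33 above 0, large subunit genes one of 0.15 with 35 of 42, and the stalk genes one of -0.02 with 2 of 5. Without controls 2 and 3 and spermine 1 the median was 0.11 with 64 of 81 above 0, and against controls 2 and 3 alone it was 0.35.

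The smallest p-values with spermine belonged to RPL7B, RPL39 and RPL15B, none of which was called. RPL7B encodes a large subunit protein. Its signals were 1769, 4269 and 2116 on the spermine arrays, 829.6, 1275, 1840.1, 302 and 1252 on the spermidine arrays, and 729, 247, 928, 1185 and 762 on the control arrays. All 3 spermine arrays lay above every control array, and control 2 and spermidine 4 were far below the rest of their groups. The difference of 1.89 ± 0.57 in log2 (limma adjusted p = 0.285) corresponds to a ratio of 3.72, and its second probe set gave 1.19.

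RPL39 encodes a small protein that lines the exit tunnel. Its signals were 4533, 5202 and 5208 on the spermine arrays, 3713, 4789.7, 3594, 2477 and 3807 on the spermidine arrays, and 4072, 2951, 3414, 3485 and 4051 on the control arrays. The spermine arrays lay above every control array, and the spermidine arrays overlapped the controls. The difference was 0.48 ± 0.17 (adjusted p = 0.396). RPL15B, which encodes a large subunit protein together with RPL15A, had signals of 831, 1068 and 1104 on the spermine arrays, 1485, 1333, 1095, 1906 and 1631 on the spermidine arrays, and 1325, 1474, 2019, 1586 and 1139.7 on the control arrays. Here the spermine arrays lay below every control array, with a difference of -0.57 ± 0.21 (adjusted p = 0.418). In all, 6 members were higher with spermine without overlap of the normalised values (RPL7B, RPL39, RPS25B, RPL31B, RPL22A and RPL17B), which is to be read against 3.86% of all genes, and RPL15B was lower (2.55% of all genes). RPS25B, RPL31B, RPL22A and RPL17B are named for this pattern after their values were seen, with values of 0.38, 0.31, 0.31 and 0.25.

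Spermine and spermidine arrays were also compared directly. This contrast shares its arrays with the others. At an adjusted p under 0.05, 5 members were higher with spermine and 0 were lower, which is 6.17% of the set, against 20.6% of all genes (9.43% higher and 11.2% lower). The median difference was 0.13, with 68 of 81 members (84.0%) above 0, against 50.7% of all genes. Without spermidine 4 the median was 0.04 with 45 above 0 and 2 genes called (2.47% of members, against 18.1% of all genes), and without controls 2 and 3 and spermine 1 it was 0.22 with 70 above 0 and 8 called (9.88%, against 20% of all genes). The groups were apart for 11 members, all higher with spermine (12.8% of all genes were higher and 14.8% lower without overlap). The count of called members was 0 without spermine 2, 1 without spermine 3, 2 without spermidine 5, and 8 without spermidine 3, where 7 were higher and 1 lower. Over all genes, 14.1% to 21.1% were called with 1 array left out.

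Of the 5 called members, RPL3 and RPS31 had the smallest adjusted p. RPL3 differed by 0.41 ± 0.11 (adjusted p = 0.0181), and its values with spermine overlapped the controls (-0.14 ± 0.11, adjusted p = 0.805). The call was lost with the replicate block and without spermine 2 or 3 (differences of 0.35, 0.38 and 0.36, adjusted p of 0.109, 0.0718 and 0.0793). RPS31 differed by 0.42 ± 0.10 (adjusted p = 0.0106), and all its spermine arrays lay above all its spermidine arrays. That call was lost with median centring and without spermine 2 (adjusted p of 0.0798 and 0.0523).

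RPS7B and RPS14B encode small subunit proteins. RPS7B signals were 4076, 4810.1 and 4716 on the spermine arrays, 3209, 3023, 3933, 2299 and 2878 on the spermidine arrays, and 4216, 3369.5, 2897, 4067 and 3883 on the control arrays. The spermine arrays lay above all spermidine arrays, by 0.54 ± 0.16 (adjusted p = 0.0307), and among the controls were arrays of either range. RPS14B, whose pre-mRNA is bound and held back from splicing by its own protein, had signals of 2244, 4319 and 3395 on the spermine arrays, 2374, 2282, 1842, 1281 and 1815 on the spermidine arrays, and 2894, 2049, 1736, 2949 and 2521 on the control arrays. Spermine 1 overlapped the spermidine arrays. The difference was 0.80 ± 0.25 (adjusted p = 0.0364). RPP2B differed by 0.30 ± 0.10 (adjusted p = 0.0483).

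These 3 calls depended on single arrays. RPS7B was not called when spermine 2, spermine 3 or spermidine 2, 4 or 5 was left out (differences of 0.45 to 0.53, adjusted p of 0.0517 to 0.112), nor in 3 other settings. RPS14B was not called without spermine 2, spermine 3 or spermidine 3, 4 or 5 (0.58 to 0.79, adjusted p of 0.0580 to 0.182), nor in 2 other settings. RPP2B was not called when any of 10 arrays, all but control 2, spermine 1 and spermidine 3, was left out (0.25 to 0.32, adjusted p of 0.0530 to 0.191), nor in 7 other settings.

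Paralogs were compared pair by pair, as log2 of paralog A minus log2 of paralog B on each array. The question was whether the members of a pair changed by unequal amounts. An exact two-sided permutation test over arrays was run for 31 pairs in 3 contrasts, and p-values were adjusted over all 93 tests. None passed after adjustment (smallest adjusted p = 0.185), and the smallest p these group sizes allow is 0.00794 for spermidine against control and 0.0179 in the contrasts with spermine. Without adjustment, 5 pairs had an exact p under 0.05 with spermidine, 3 with spermine and 4 between spermine and spermidine. These counts were 7 with spermine when spermine 1 was left out, and between spermine and spermidine 1 without spermine 2, spermidine 2 or spermidine 4 and 2 without spermidine 1 or 5. With spermidine, 26 of 31 pairs had both members changing by less than 1.3-fold. Genes named B had the higher value in 18 pairs with spermidine and 19 with spermine, and the medians of the B and A genes were 0.07 and 0.05 with spermidine and 0.26 and 0.13 with spermine.

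**Figure D4:**
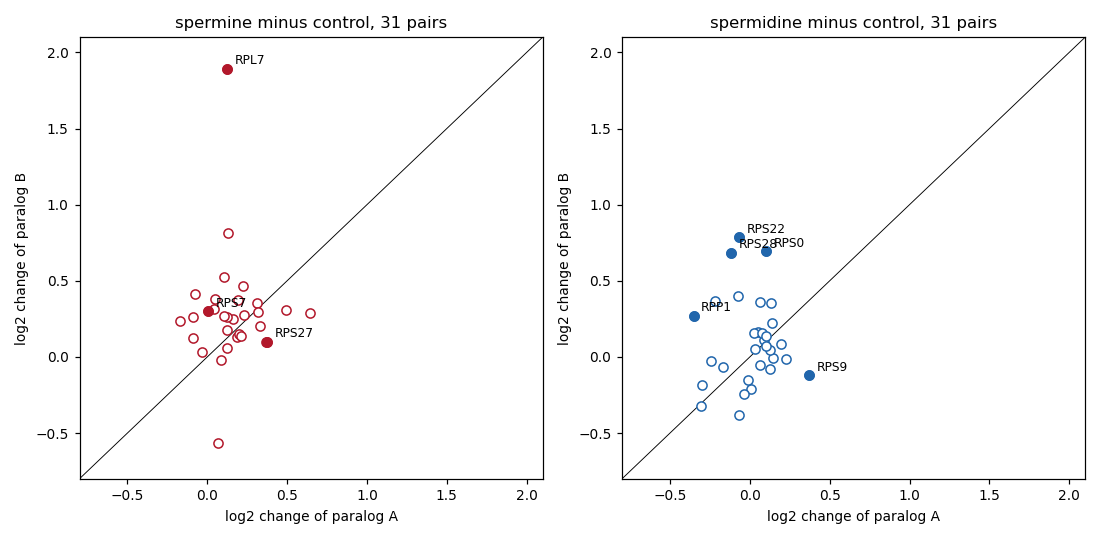
Log2 change of paralog A (x axis) against paralog B (y axis) in 31 pairs, for spermine minus control (left) and spermidine minus control (right), with the line of equal change. Filled and labelled points have an unadjusted exact p under 0.05: RPL7, RPS7 and RPS27 with spermine, and RPS22, RPS28, RPS0, RPP1 and RPS9 with spermidine.

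In 3 of the small subunit pairs, RPS22, RPS28 and RPS0, the log2 value with spermidine was higher for the B gene. RPS22A stood at -0.07 and RPS22B at 0.78. The difference of A minus B, relative to the control mean, was 0.49, -0.34 and -0.09 on the spermine arrays, -1.05, -1.16, -0.82, -0.59 and -0.65 on the spermidine arrays, and -0.35, -0.15, 0.50, -0.12 and 0.11 on the control arrays. Every spermidine array lay below every control array, while the spermine arrays lay among the controls. The A minus B change was -0.85 ± 0.18 with spermidine (exact p = 0.00794, adjusted p = 0.185), 0.02 ± 0.29 with spermine (exact p = 0.821), and 0.87 ± 0.27 between spermine and spermidine (exact p = 0.0179, adjusted p = 0.185).

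RPS28 encodes a protein near the exit of the messenger RNA channel, and RPS28B transcripts are regulated by their own product. RPS28A stood at -0.12 and RPS28B at 0.68 with spermidine, neither of them called. RPS28B signals were 2578, 5942 and 5797 on the spermine arrays, 4493, 3931, 3573, 3175 and 4475 on the spermidine arrays, and 3567, 1661, 1634, 3119.9 and 3122 on the control arrays. Controls 2 and 3 and spermine 1 were the low arrays of their groups. The A minus B change was -0.80 ± 0.16 with spermidine (exact p = 0.00794, adjusted p = 0.185), with no overlap of the groups, and -0.69 ± 0.31 with spermine (exact p = 0.0893).

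RPS0 encodes a protein needed for maturation of the small subunit. RPS0A signals were 4659, 5141 and 4956 on the spermine arrays, 4292, 5791, 5458, 2545 and 5341 on the spermidine arrays, and 4921, 3399, 3570.3, 4667 and 4937 on the control arrays. RPS0B signals were 4922, 11763 and 11916 on the spermine arrays, 10419.5, 13225, 10909.6, 5975 and 11321 on the spermidine arrays, and 8749, 4025, 4165, 7787 and 8534 on the control arrays. In both genes controls 2 and 3 were the lowest controls, and spermidine 4 was the lowest spermidine array. The A minus B values were 0.48, -0.50 and -0.70 on the spermine arrays, -0.70, -0.47, -0.51, -0.90 and -0.40 on the spermidine arrays, and -0.29, 0.28, 0.38, -0.13 and -0.24 on the control arrays. All spermidine arrays lay below all controls, and spermine 1 lay above all controls. The change was -0.59 ± 0.17 with spermidine (exact p = 0.00794, adjusted p = 0.185) and -0.24 ± 0.39 with spermine (exact p = 0.429). The second probe sets of the genes lay closer together with spermidine, at 0.23 for RPS0A and 0.27 for RPS0B.

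RPS9 went the other way. It encodes a protein at the entry of the messenger RNA channel that affects decoding accuracy, and with spermidine RPS9A stood at 0.37 and RPS9B at -0.12, neither of them called. RPS9A signals were 1656, 2276 and 2042 on the spermine arrays, 1702, 1901, 1934, 1429.9 and 1708 on the spermidine arrays, and 1591, 845, 809, 1691 and 1924 on the control arrays. Controls 2 and 3 were low, and the other controls lay within the range of the treated arrays. The A minus B values were 0.13, 0.40 and 0.52 on the spermine arrays, 0.46, 0.72, 0.38, 0.45 and 0.45 on the spermidine arrays, and 0.21, -0.42, -0.41, 0.28 and 0.34 on the control arrays. The lowest spermidine array lay just above the highest control. The change was 0.49 ± 0.18 (exact p = 0.00794, adjusted p = 0.185), and 0.22 without controls 2 and 3 and spermine 1, where the groups stayed apart (exact p = 0.0179).

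The other 3 small subunit differences shrank less in that setting. Without controls 2 and 3 and spermine 1, A minus B with spermidine was -0.74 for RPS22 (exact p = 0.0179), -0.58 for RPS28 (0.0179) and -0.37 for RPS0 (0.0536). In every setting tried the sign of these 4 differences was the same as reported above. Leaving out any single array left the groups apart, but groups without overlap stay so when arrays are removed, unless normalisation shifts values. Leaving arrays out was therefore no test of the separation. With the mean of each gene's probe sets, the difference was -0.96 for RPS22 with the groups apart (exact p = 0.00794), while the groups overlapped for RPS28 (-0.76, exact p = 0.0556), RPS0 (-0.32, exact p = 0.0397) and RPS9 (0.44, exact p = 0.0159). Without controls 2 and 3, spermine 1 and spermidine 4, the difference of RPS0 was -0.29 (exact p = 0.0286). How far a probe set of a gene also binds RNA of its paralog was not tested. The probe sets of RPS22B, RPS28A, RPS28B, RPS9A and RPS9B carry a suffix that marks a departure from the standard design, while those of RPS0A, RPS0B and RPS22A do not. Among the 15 pairs measured by plain probe sets on both sides, 3 had an exact p under 0.05 with spermidine, namely RPS22 (-1.27), RPS0 and RPP1.

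**Figure D5:**
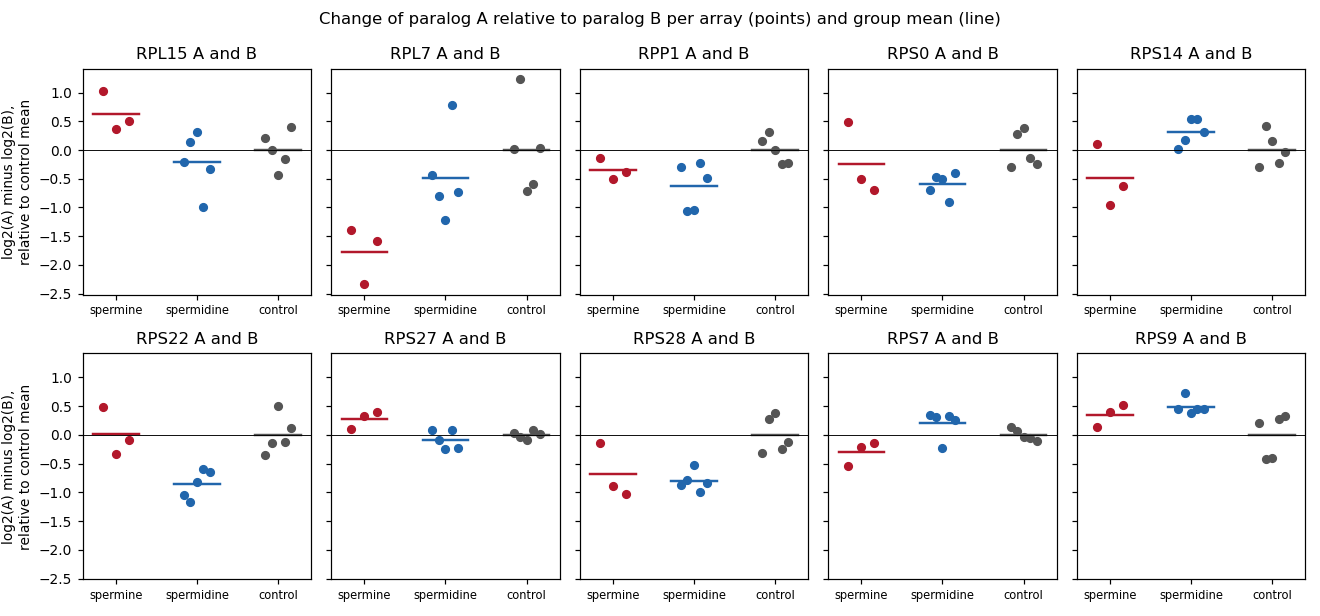
Log2 of paralog A minus log2 of paralog B per array, relative to the control mean (y axis), in the 10 pairs with an unadjusted exact p under 0.05 in any contrast, with spermine, spermidine and control arrays from left to right and a line for the group mean. In RPS22, RPS28 and RPS0 all spermidine arrays lie below the controls, in RPS9 above them, and in RPL7 all spermine arrays lie below the controls.

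Among stalk genes, RPP1A and RPP1B differed by -0.62 ± 0.21 with spermidine (exact p = 0.0159, adjusted p = 0.185), and spermidine 4 (-0.23) lay at the lowest control (-0.24). With spermine the difference was -0.35 ± 0.15 (exact p = 0.0893). RPP2A and RPP2B, their partners, stood at -0.31 and -0.32 with spermidine.

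With spermine the most unequal pair was RPL7. RPL7A differed from control by 0.12 and RPL7B by 1.89. The A minus B values were -1.40, -2.34 and -1.58 on the spermine arrays, -0.43, -0.80, -1.22, 0.78 and -0.72 on the spermidine arrays, and 0.02, 1.24, -0.71, -0.60 and 0.04 on the control arrays. The 3 spermine arrays lay below all others, and the controls spread between -0.71 and 1.24. The change was -1.77 ± 0.45 with spermine (exact p = 0.0179, adjusted p = 0.185) and -0.48 ± 0.48 with spermidine (exact p = 0.373). Between spermine and spermidine RPL7 was also the most unequal pair, at -1.29 ± 0.44 (exact p = 0.0536, adjusted p = 0.311), with the groups apart. With the mean of each gene's probe sets the difference was -1.38 with spermine (exact p = 0.0357) and -0.75 between spermine and spermidine, where the groups overlapped (exact p = 0.161). A probe set naming both genes gave 0.19 with spermine and was not called.

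RPL15 followed RPL7 and RPS22 in the size of its difference between spermine and spermidine. RPL15A differed by 0.31 and RPL15B by -0.54, a difference of 0.85 ± 0.30 (exact p = 0.0357, adjusted p = 0.277). RPS14 differed by -0.81 ± 0.33 (exact p = 0.0357), with RPS14A at -0.01 and RPS14B at 0.80. RPS27 and RPS7 are named after their values were seen. RPS27A exceeded RPS27B by 0.28 ± 0.09 with spermine (exact p = 0.0179) and by 0.36 ± 0.11 against spermidine (exact p = 0.0357), while RPS7A minus RPS7B was -0.30 ± 0.13 with spermine (exact p = 0.0179) and -0.23 with the mean of its probe sets (exact p = 0.0893). RPL9A and RPL9B, which encode a large subunit protein, differed by -0.59 ± 0.32 with spermidine (exact p = 0.0952), and the groups overlapped.

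Other ribosomal protein genes could be seen only through probe sets that name several genes. Of 138 genes that match the pattern in the reference gene table, 57 had no probe set of their own here. A further 59 probe sets, covering 37 paralog pairs, name more than 1 ribosomal protein gene. With spermidine 1 of these was called higher and 2 lower, against 26.7% of 281 probe sets of this kind called in either direction: RPL11A and RPL11B at 0.37, RPL4A and RPL4B at -0.24, and RPL43A and RPL43B at -0.24. The other probe sets of these pairs were not called. They stood at -0.33 and -0.24 for RPL11A and RPL11B, opposite in sign to the called one, at -0.22 and -0.67 for RPL4A and RPL4B, and at -0.20 and 0.07 for RPL43A and RPL43B. With spermine none was called (0% of 281), and 52 of 59 were above 0. Between spermine and spermidine 3 of the 59 were called, all higher, against 23.5% of the 281 called in either direction, and 53 of 59 were above 0.

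Lists of genes that regulate, chaperone or modify ribosomal proteins were examined for comparison. Of 19 listed transcription regulators 17 were tested, and with spermidine 1 was higher and 1 lower (11.8%, against 32.6% of all genes called). STB3, a repressor of ribosome synthesis genes when TOR signalling is low, had signals of 143, 71.7 and 77.8 on the spermine arrays, 181, 202, 214, 239.5 and 221 on the spermidine arrays, and 67.4, 135, 128, 71.6 and 87.4 on the control arrays. All spermidine arrays lay above all others, with a change of 1.14 ± 0.21 (adjusted p = 0.000977), and the difference of spermine from spermidine was -1.19 ± 0.25 (adjusted p = 0.00335). RRP7, part of a complex with casein kinase that also contains Ifh1, changed by -0.76 ± 0.20 (adjusted p = 0.00943). CKB1, a casein kinase subunit, was lower with spermine than with spermidine, with a difference of -0.68 ± 0.21 (adjusted p = 0.0316). None of the promoter-bound factors RAP1, FHL1, IFH1, SFP1 and HMO1 was called, with values for spermidine against control of -0.34, 0.21, 0.40, -0.54 and -0.10.

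None of the 10 dedicated chaperones of ribosomal proteins was called in any of the 3 contrasts, and their median with spermidine was -0.16. Of 10 listed modification enzymes tested, 2 were lower with spermidine (20%, against 14.7% of all genes), and 1 of these 2, NAT4, does not modify ribosomal proteins. NAT4, which acetylates histones H4 and H2A, had signals of 181, 161 and 133 on the spermine arrays, 82.8, 77.9, 80.0, 64.6 and 81.9 on the spermidine arrays, and 135, 109, 168, 109 and 129 on the control arrays. All spermidine arrays lay below the rest, with a change of -0.73 ± 0.16 (adjusted p = 0.00297) and a difference of spermine from spermidine of 0.99 ± 0.19 (adjusted p = 0.00161). RKM4, a lysine methyltransferase of a large subunit protein, changed by -0.42 ± 0.15 (adjusted p = 0.0404) and was higher with spermine than with spermidine by 0.52 ± 0.17 (adjusted p = 0.0424). Of 5 ribosome-bound chaperone genes tested, 0 were called with spermidine or spermine against control, and BTT1, a subunit of the nascent chain complex, was higher with spermine than with spermidine by 0.72 (adjusted p = 0.0309). ASC1, STM1, TMA19 and TEF4, whose products bind the ribosome, were not called in any contrast.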

How the data were processed

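The deposited values are linear signal intensities of 9335 probe sets on 13 arrays, computed in MAS5 by the authors, as named in the submitters' processing notes, which state no version. Of the probe sets, 60 controls were left out after normalisation and 6504 name 1 gene in the platform annotation used here, whose symbols were matched to a RefSeq gene table (81 of 81 members matched).

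Intensities were taken to log2 without a pseudocount and quantile normalised, because array medians differed by 1.29-fold, over the limit of 1.25. The dimmest 25% of probe sets (signal under 37.8) were left out, and a gene with several probe sets was represented by the brightest, so 5102 genes were tested. All 3 group means were fitted over the 13 arrays with limma 3.58.1 under R 4.3.3, using a variance trend on intensity, and p-values were adjusted by Benjamini-Hochberg over all genes, with a threshold of 0.05. Probe sets naming several genes were fitted apart in the same way, and their p-values were adjusted over those 281 probe sets only. Log2 changes are followed by ± the standard error. Signals are as deposited, and overlap of groups was judged on normalised values. Exact permutation tests over arrays compared paralogs. Precision is limited by how many arrays each group has, and present calls were not used. Both procedures were tested on simulated data. Plots were made in Python 3.11.15 using matplotlib 3.10.9.

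Members and gene lists were chosen with earlier results of these data known. The genes named are up to 8 called members in each direction per contrast (the 3 with the smallest p where fewer than 3 were called), the 6 most unequal paralog pairs with spermidine and the 3 most unequal in each other contrast, the stalk and ubiquitin fusion genes, and up to 4 called members per context list, with exceptions stated where they occur. Alternatives were values as deposited, median centring, pseudocounts of 16 and 64, no filter or one of 50%, the mean of probe sets, plain probe sets, a replicate block, no trend, array weights, 2-group fits and arrays left out.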

Additional observations from a re-analysis of the deposited data

Results flagged for a closer look

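Spermidine 4 stood apart from the other 4 spermidine arrays in 4 values. Its gap to the nearest other array, as a share of the group's whole range, was 0.724 for RPS0A, 0.812 for RPS0B, 0.79 for RPS22A and 0.761 for the median of all 81 ribosomal protein genes, each above the critical value of 0.71 for 5 samples. The normalised log2 values on spermidine 4 were 11.34 for RPS0A (12.11 to 12.41 on the other arrays of the group), 12.81 for RPS0B (13.36 to 13.48) and 13.20 for RPS22A (13.75 to 13.89). In all, 54 groups of values were examined in this way, and chance flags about 1 in 20 groups. The changes reported with spermidine for RPS22A, RPS0A and RPS0B include this array.

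A difference between the spermine and the spermidine arrays passed the test of the difference itself in limma for 5 genes, all higher with spermine. This is 6.17% of members, against 20.6% of all genes (9.43% higher and 11.2% lower). These were RPL3 (0.41), RPS31 (0.42), RPS7B (0.54), RPS14B (0.80) and RPP2B (0.30). Of 28 alternative settings, the call was lost in 3 for RPL3, 2 for RPS31, 8 for RPS7B, 7 for RPS14B and 17 for RPP2B.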

How the results depend on the processing

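The counts of called genes, the set medians and the counts of pairs with an unadjusted exact p under 0.05 were recomputed under 28 alternatives, 13 of which leave out 1 array. Of 317 values, 267 stayed close to those reported and 50 moved. The spermidine median, 0.028 as reported, lay below 0 with median centring (-0.0061), plain probe sets (-0.035), array weights (-0.013), without control 2 (-0.0044), without control 3 (-0.048) and without controls 2 and 3 and spermine 1 (-0.11). Of 2079 values of 25 named genes, 1953 stayed on the same side of the threshold, 87 lost their call, 39 gained one and 0 turned their sign while called. Most of the 2079 values belong to results that were not called as reported and so could not lose a call. With spermidine the call of RPS31 was lost in 22 of 28 alternatives, that of RPP1A in 14 and that of RPL3 in 0. Between spermine and spermidine the call of RPP2B was lost in 17 of 28 and that of RPS31 in 2. The cause of these shifts was not tested. With spermidine, values as deposited, the fit without a trend and the 2-group fit each gave 3 genes lower, median centring gave 1, and controls 2 and 3 alone gave 1. Over the alternatives other than leaving out 1 array, 1.23% to 11.3% of members were called with spermidine, against 27.2% to 38.5% of all genes. Genes higher with spermidine numbered 0 with median centring, 0 without controls 2 and 3 and spermine 1, 3 with the 2-group fit, 8 against controls 2 and 3 alone, and 3 without controls 2 and 3, spermine 1 and spermidine 4, which was the setting added after seeing the data. Unequal pairs with spermidine numbered 3 of 15 with plain probe sets and 2 in that last setting. Leaving out 1 array at a time gave 0 to 6 genes higher, 3 to 5 lower and 5 to 6 pairs. It called 3.7% to 11.1% of members, against 28.6% to 32.6% of all genes. With spermine, controls 2 and 3 alone gave 3 genes higher (3.70% of members, against 3.19% of all genes called) and a median of 0.35, and leaving out 1 array gave 2 to 7 pairs, the highest without spermine 1. Between spermine and spermidine, 1 gene was higher with median centring (1.23% of members, against 19.2% of all genes called). Array weights gave 10 (12.3%, against 26.8%). Without controls 2 and 3 and spermine 1 there were 8 (9.88%, against 20%), and 11 without spermidine 4 as well (13.6%, against 19.8%). Pairs numbered 7 with values as deposited and 7 with median centring. Leaving out 1 array gave 0 to 7 genes higher, 0 to 1 lower and 1 to 4 pairs. It called 0% to 9.88% of members, against 14.1% to 21.1% of all genes. Pair tests that could not reach an exact p under 0.05 gave no value. Same-numbered arrays of the groups compared had deviations correlating between -0.57 and 0.20, not above 0.1 in every pair, so the numbers were not taken to pair the samples. With the replicate number as a block, 0 genes were higher and 5 lower with spermidine (6.17% of members, against 27.2% of all genes called). In that setting 0 were called with spermine (0.0392% of all genes), and 1 was higher between spermine and spermidine (1.23%, against 12.2%). All scalings moved the median of all genes by less than 0.1. The number of arrays limits what can be detected.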

Other observations

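Genes without a paralog letter differed in their median from the paired genes. With spermidine the 18 genes of this kind (RPP1 left out) had a median change of -0.10, with 7 above 0. Of these 18, 3 were called lower (RPL3, RPS20 and RPS31), which is 16.7%, against 14.7% of all genes. The median was 0.05 for the 31 genes named A, of which 1 was called (RPP1A, 3.23%). It was 0.07 for the 31 named B, of which 2 were called (RPS22B and RPP2B, 6.45%). Over all genes, 32.6% were called in either direction. With spermine the same 18 genes had a median of 0.13, with 12 above 0, against 26 of 31 for the A genes and 29 of 31 for the B genes. The kind of probe set differed as well: the 51 members with plain probe sets had medians of 0.13 with spermine and -0.03 with spermidine, and the 30 members with suffixed ones medians of 0.23 and 0.08. These are descriptions, and no test was run between the kinds of gene.

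The subunits moved together from array to array. On spermidine 4 the median was -0.32 for the small subunit and -0.36 for the large one, and on control 3 it was -0.25 and -0.22, relative to the control mean. On spermine 2, the array with the highest median, the values were 0.28 and 0.27.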
